A study of Mus musculus with 6 samples.

Results

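Oct4, encoded by Pou5f1, and 7 further transcription and chromatin factors of the formative or primed pluripotent state were followed in mouse embryoid bodies (EBs) with and without Tnfaip2. The 8 genes, Pou5f1, Otx2, Pou3f1, Utf1, Foxd3, Grhl2, Sall2, and Sall4, were taken by symbol from a table of counts for 52636 genes, and each symbol matched 1 row. EBs are aggregates of embryonic stem cells (ESCs) that begin to differentiate. They were made from E14, an established mouse ESC line, as the wild-type (WT) parental line, and from a Tnfaip2-/- line, which is a single clone in which CRISPR-Cas9 left a premature stop codon in the gene. Both lines spent 3 days in hanging drops in medium with the cytokine LIF and 3 days on gelatin in medium for which LIF is not listed. RNA was sequenced from 3 WT and 3 Tnfaip2-/- EB samples, and the comparison asks how loss of Tnfaip2 alters gene expression while ESCs leave pluripotency.

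Mouse pluripotent cells pass from a naive state, held by LIF and modelled by ESCs, through a formative state that becomes competent for lineage choice, to the primed state of the epiblast before gastrulation. Oct4 is required in all of them, but its partners change. In naive cells Oct4 binds enhancers with SOX2, ESRRB, and Kruppel-like factors, whereas on exit from this state OTX2 and the POU factor OCT6, encoded by Pou3f1, take part in a redistribution of Oct4 to other enhancers. UTF1 is a chromatin-bound protein of undifferentiated cells and a classical target of Oct4 and SOX2. FOXD3 and GRHL2 open or prime enhancers during the same transition, and SALL4 and SALL2 are zinc finger factors, of which SALL4 supports the pluripotent network.

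The depth per sample was between 22489903 and 23804489 counts in the WT EBs and between 21765931 and 22480962 counts in Tnfaip2-/- EBs. The counts of Tnfaip2 were 7, 4, and 7 in WT and 0, 2, and 2 in Tnfaip2-/- EBs. Each Tnfaip2-/- sample thus lay below each WT sample, but the gene was close to undetected in both lines and did not enter the test. Levels are given below as CPM (counts scaled to a common library size) after TMM scaling, as mean ± SD of 3 samples. Differences are log2 fold changes of Tnfaip2-/- against WT EBs with their standard error (SE), from the quasi-likelihood test of edgeR with adjusted p-values over 17849 tested genes, and a gene was called at an adjusted p below 0.05. The replicates measure the spread within 1 line or 1 clone per genotype, and not between independent clones. The paper calls them biological replicates, and the labels do not say how they were separated. Between samples of the same genotype the variance was 1.4 to 2.09 times that of counting noise, over 13892 genes. Between samples of different genotype it was 56.8 to 60.9 times that noise. In bulk RNA, fewer cells of a type and less RNA per cell cannot be told apart.

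All 8 genes passed the expression filter. In Tnfaip2-/- EBs 7 were lower, 0 were higher, and Otx2 did not pass the test. DESeq2 called 6 of the 8. Calls were common across the transcriptome, since 67.7% of the tested genes were called in either direction, 33.7% as lower and 34% as higher, so that being called sets none of the genes apart. The median log2 fold change was -0.64 for the 8 genes and 0.0030 for all tested genes. The genes differed from each other in size: Foxd3 was 6.26-fold lower, Sall2, Grhl2, and Pou5f1 were between 1.81- and 2.14-fold lower, Pou3f1 and Sall4 between 1.28- and 1.34-fold lower, and Utf1 1.05-fold lower. The groups did not overlap in CPM for 6 genes and overlapped for Otx2 and Utf1, while across all tested genes 69.4% had groups that did not overlap.

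**Figure D1:**
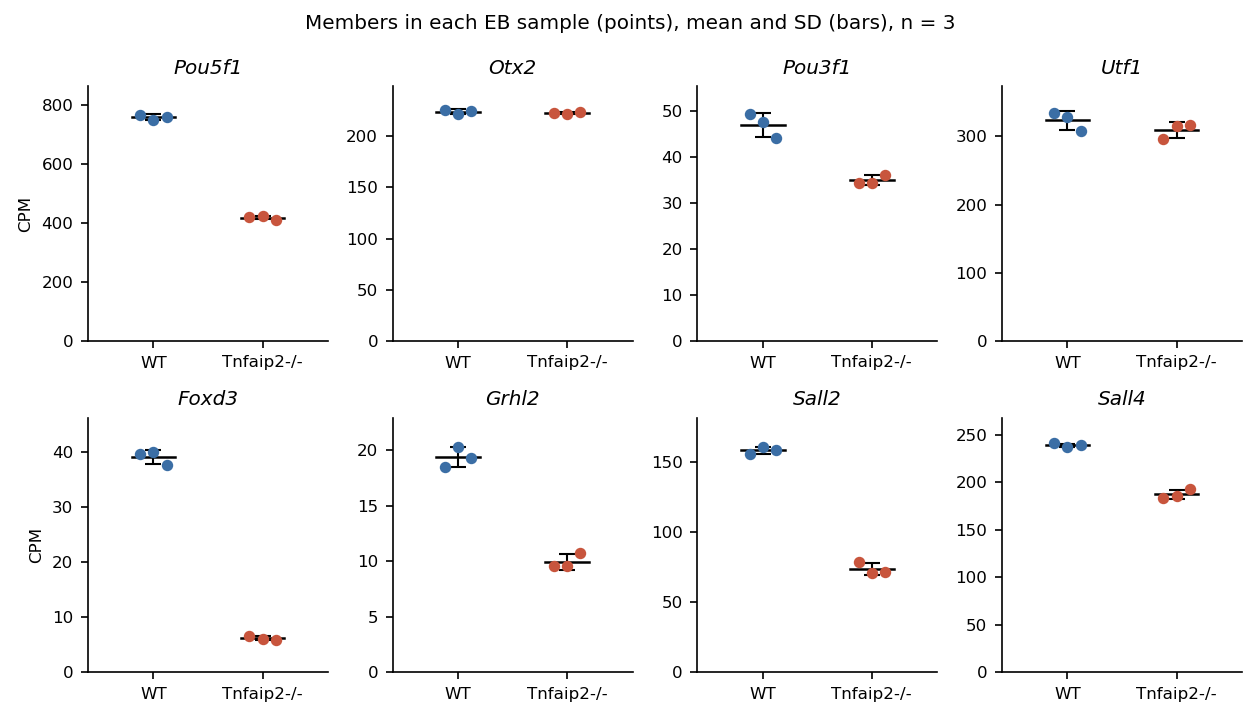
CPM of the 8 genes in each WT and Tnfaip2-/- EB sample, with 1 point per sample and the mean and SD of 3 samples as bars, on axes that start at 0. Foxd3 shows the widest gap between the groups as a fold change, from 39.1 to 6.23 CPM, whereas the points of Otx2 and Utf1 overlap.

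Pou5f1 (ENSMUSG00000024406, chr17:35506018-35510772, forward strand, GRCm38) had 17425, 16786, and 17869 counts in WT and 9563, 9282, and 9144 counts in Tnfaip2-/- EBs. The highest Tnfaip2-/- sample was far below the lowest WT sample, and samples of the same genotype were close to each other. The level was 759 ± 9.63 CPM in WT and fell to 418.5 ± 5.97 CPM in Tnfaip2-/- EBs (log2 fold change -0.86, SE 0.0237, adjusted p = 1.6e-32, edgeR). Oct4 mRNA was therefore present in both lines, at 55.2% of the WT level in Tnfaip2-/- EBs.

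Sox2 and Nanog, 2 further genes of the core pluripotency circuit, went the other way. Sox2 had 6304, 6353, and 6581 counts in WT and 7404, 7109, and 7472 counts in Tnfaip2-/- EBs (log2 fold change 0.23, adjusted p = 6.1e-11, edgeR). Nanog differed by 0.26 on the log2 scale (adjusted p = 9e-12, edgeR). To compare these genes within a sample, CPM was divided by the length of all exons in kb. Pou5f1 stood to Sox2 at ratios of 2.53, 2.42, and 2.49 in WT and 1.182, 1.195, and 1.12 in Tnfaip2-/- EBs. The ratio of Pou5f1 to Nanog was 3.06, 2.93, and 2.83 in WT and 1.32, 1.38, and 1.35 in Tnfaip2-/- EBs. Neither ratio overlapped between the groups. They were lower in 3 of 3 Tnfaip2-/- samples, by 2.13- and 2.175-fold, and they were chosen after the values of the genes were seen and were not tested. The size of such ratios depends on the length used, with means of 4.09 and 1.92 for Sox2 and of 4.78 and 2.2 for Nanog with the longest transcript, whereas length cancels in the fold between groups.

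Some reads cannot be assigned to Pou5f1 with certainty. The antisense gene Gm19553 overlaps 14.1% of its exon bases, and the library kit does not keep the strand. Gm19553 had at most 9 counts in any sample. Of the 51-base windows in Pou5f1 exons, the length of the reads, 9.93% also occur in Gm19553 or in the processed pseudogene Gm5712 on chromosome 3. Gm5712 had 175, 165, and 180 counts in WT and 79, 98, and 102 counts in Tnfaip2-/- EBs (log2 fold change -0.86, adjusted p = 2.7e-09, edgeR), close to that of Pou5f1 and at a far lower count.

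Genes on chromosome 17 were shifted as a whole, with a median log2 fold change of -0.25 over 791 tested genes, of which 55.8% were called lower. The part of this shift in the value of Pou5f1 was not tested. On chromosome 14, which carries Otx2 and Sall2, the median was -0.10 over 711 tested genes, and 41.5% were called lower. The chromosomes of the remaining factors had medians between 0.03 and 0.09. Among the 20 tested genes within 250 kb of Pou5f1, a distance chosen after the data were seen, 7 were higher and 6 lower, with a median log2 fold change of 0.10. The nearest, Tcf19, which lies 1.96 kb downstream, differed by -0.59 on the log2 scale (adjusted p = 2.5e-08, edgeR). The coding genes Ddr1, Gtf2h4, and Vars2 were lower as well, with log2 fold changes of -0.55, -0.46, and -0.42 (adjusted p = 1.2e-10, 1.3e-12, and 6.9e-09, edgeR). The most abundant of the 7 higher genes was H2-Q7, at 8.47 CPM in WT and 11.4 CPM in Tnfaip2-/- EBs. Pou5f1 thus shared its direction with several coding neighbours and differed from them in size. No neighbour within this distance had a lower value than the -0.87 of the pseudogene Gm18734, which had at most 12 counts in any sample.

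The stretches before the start of 3 of the lower genes are printed because these genes moved in the same direction and have a RefSeq start within 14 bases of an annotated GENCODE start of the gene. RefSeq promoter entries (GRCm38.p6) were found for 5 of the 8 genes, Pou5f1, Otx2, Utf1, Foxd3, and Sall2. Each stretch runs 5′ to 3′ on the strand of the gene, from 250 to 21 bases before the start, and capitals mark matches to the motifs searched. For Sall2 the stretch belongs to the inner of its 2 starts, and lies in an intron of the longer transcript.
Pou5f1, chr17:35505782-35506011, forward strand: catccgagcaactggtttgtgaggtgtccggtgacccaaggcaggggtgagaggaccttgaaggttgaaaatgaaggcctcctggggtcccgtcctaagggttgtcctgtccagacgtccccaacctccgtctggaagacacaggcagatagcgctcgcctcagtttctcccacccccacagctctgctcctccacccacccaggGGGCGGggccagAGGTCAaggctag
Foxd3, chr4:99656049-99656278, forward strand: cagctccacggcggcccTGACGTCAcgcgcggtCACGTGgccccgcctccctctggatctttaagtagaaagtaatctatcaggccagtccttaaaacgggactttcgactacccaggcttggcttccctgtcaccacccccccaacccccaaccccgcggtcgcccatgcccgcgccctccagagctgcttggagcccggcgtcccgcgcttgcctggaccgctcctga
Sall2, chr14:52316344-52316573, reverse strand: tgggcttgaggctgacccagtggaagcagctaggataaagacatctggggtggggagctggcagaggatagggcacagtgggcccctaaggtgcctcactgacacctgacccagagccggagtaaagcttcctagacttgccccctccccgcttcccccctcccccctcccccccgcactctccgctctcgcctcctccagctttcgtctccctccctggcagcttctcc

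The motifs were searched on both strands in windows of this length for all 32851 promoter entries. The Pou5f1 stretch holds a GC box, GGGCGG, found in 29.8% of all windows, 45 to 40 bases before the start. The nuclear receptor motif AGGTCA, found in 13% of windows, follows at 33 to 28 bases. The Foxd3 stretch holds a cAMP response element, TGACGTCA, found in 1.28% of windows, and an E box, CACGTG, found in 5.35% of windows. The Sall2 stretch held no match to any of the 7 motifs. The others searched were the TATA box TATAAA (11.8% of windows), CCAAT (32.2%), and the octamer ATGCAAAT that POU factors recognise (1.53%), and none of these was found in the 3 stretches. GC content was between 61.7% and 65.7% in the 3 stretches, with a median of 51.7% over all windows. A match in these letters is a description of the sequence and does not show binding.

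Otx2 (ENSMUSG00000021848, chr14:48657677-48673819, reverse strand) encodes the homeobox factor that directs Oct4 to new enhancers on exit from the naive state and later patterns the anterior brain. Its counts were 5119, 4963, and 5288 in WT and 5062, 4868, and 4959 in Tnfaip2-/- EBs. The 3 Tnfaip2-/- samples lay within the range of the WT samples on the CPM scale. The level was 224 ± 2.25 CPM in WT EBs and 222.6 ± 0.675 CPM in Tnfaip2-/- EBs, with a log2 fold change of -0.01 (SE 0.0261, adjusted p = 0.786, edgeR) and a 95% confidence interval from -0.06 to 0.04. With upper-quartile scaling in place of TMM the estimate was 0.02, on the other side of 0. The interval leaves room for a small difference in either direction. Gm49154, annotated on the same strand and without a row in the table of counts, overlaps 3.98% of the Otx2 exon bases. The antisense gene Otx2os1, which overlaps 3.65% of the Otx2 exon bases, had 3, 4, and 2 counts in WT and 14, 9, and 7 counts in Tnfaip2-/- EBs, and was below the expression filter.

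Otx2 is also made in anterior neural cells and in the anterior visceral endoderm, and markers of both were therefore read beside it. Of 8 anterior neural markers, 4 were tested, 3 were lower, and Hesx1 was higher, with 32, 20, and 29 counts in WT and 182, 165, and 149 counts in Tnfaip2-/- EBs. Among the lower, Lhx2 had overlapping groups and was not called by DESeq2 (adjusted p = 0.173) or in 4 of the 6 edgeR fits that left out 1 sample (adjusted p up to 0.202). Their summed level was 88.2, 86.6, and 82.4 CPM in WT and 41.3, 41.4, and 38.3 CPM in Tnfaip2-/- EBs, and most of it came from Sox1. Six3, Rax, Otx1, and Fezf1, which define anterior neural tissue, had at most 16 counts in any sample. Six3 had 8, 7, and 13 counts in WT and 4, 3, and 6 counts in Tnfaip2-/- EBs. Fezf1 had 9, 7, and 6 against 2, 0, and 2 counts, while Rax and Otx1 had overlapping groups. Of 5 anterior visceral endoderm markers, 4 were tested, 2 were higher and 2 lower, and Lhx1 had 50, 63, and 65 counts against 4, 4, and 1. Their sum was 248, 239, and 239 CPM in WT and 339, 342, and 327 CPM in Tnfaip2-/- EBs. It was mostly Lefty1, which pluripotent cells also express. Cer1 was not tested, and had 18, 10, and 11 counts in WT and 0, 1, and 1 counts in Tnfaip2-/- EBs. Lefty1 alone was at 230.3 CPM in WT and 326.5 CPM in Tnfaip2-/- EBs. In the same order Hhex was at 4.44 and 7.4 CPM, Dkk1 at 4.27 and 1.78 CPM, and Lhx1 at 2.59 and 0.134 CPM. The part of these marker changes in the level of Otx2 was not tested.

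Pou3f1 (ENSMUSG00000090125, chr4:124656807-124660655, forward strand), which encodes OCT6, had 1120, 1067, and 1038 counts in WT and 784, 752, and 804 counts in Tnfaip2-/- EBs. Each Tnfaip2-/- sample was below each WT sample. The level was 47 ± 2.66 CPM in WT and 35 ± 1.06 CPM in Tnfaip2-/- EBs (log2 fold change -0.43, SE 0.0467, adjusted p = 4.9e-11, edgeR). Relative to Pou5f1, however, Pou3f1 was higher in Tnfaip2-/- EBs. The ratio of Pou3f1 to Pou5f1 per kb of exon was 0.0375, 0.0371, and 0.0339 in WT and 0.0479, 0.0473, and 0.0514 in Tnfaip2-/- EBs. The groups did not overlap, and the ratio was 1.35-fold higher (exact two-sided permutation test, p = 0.1, adjusted p = 0.1 over 2 ratios). Samples of 3 against 3 cannot give a p below 0.1 in this test. The antisense gene Gm2164, which overlaps 8.57% of the Pou3f1 exon bases, had 0 counts in all 6 samples. Of its 424 exon bases 330 are shared with Pou3f1, and the count cannot show whether reads there came from it.

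Among the POU genes of classes 2, 3, and 5, Pou5f1 made up 94.9% ± 0.122 of the summed level per kb of exon in WT EBs and 93.3% ± 0.142 in Tnfaip2-/- EBs. Pou3f1 followed with 3.44% ± 0.184 and 4.56% ± 0.197. With the longest transcript as length its share was 2.12% and 2.83%, and its mean ratio to Pou5f1 was 0.0219 and 0.0296. The ubiquitous octamer factor gene Pou2f1 was at 58.7 ± 3.36 CPM in WT EBs and 53.9 ± 2.43 CPM in Tnfaip2-/- EBs, with overlapping groups (adjusted p = 0.0117 in edgeR and 0.0544 in DESeq2), and its call was also lost in 2 of the 6 edgeR fits that left out 1 sample. Pou2f2 and Pou3f3 were lower, with log2 fold changes of -1.34 and -1.50 (adjusted p = 2.6e-18 and 4.5e-05, edgeR). Pou2f3 had at most 17 counts in any sample and did not pass the test. The neural genes Pou3f2 and Pou3f4 and the germline gene Pou5f2 were not tested, and Pou5f2 had at most 2 counts in any sample. Pou3f2 had 10, 16, and 31 counts in WT and 2, 4, and 1 counts in Tnfaip2-/- EBs. Pou3f4 had 6, 7, and 6 counts in WT and 2, 2, and 3 counts in Tnfaip2-/- EBs. For both genes the groups did not overlap.

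Utf1 (ENSMUSG00000047751, chr7:139943789-139945112, forward strand) had 7590, 7367, and 7229 counts in WT and 6726, 6917, and 7039 counts in Tnfaip2-/- EBs. On the CPM scale the values were 334.6, 328.7, and 307.4 in WT and 295.7, 315.5, and 317 in Tnfaip2-/- EBs, so that 2 Tnfaip2-/- samples were above the lowest WT sample. The level was 323.6 ± 14.3 against 309.4 ± 11.9 CPM, a log2 fold change of -0.06 (SE 0.0288, adjusted p = 0.0465, edgeR). This call lay at the threshold and was lost in 9 of 15 alternative settings, among them DESeq2 (adjusted p = 0.0835), with adjusted p-values from 0.0012 to 1 over the alternatives. It was lost without WT replicate 1, without WT replicate 2, and without Tnfaip2-/- replicate 1.

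Utf1 belongs to a list of 12 Oct4 partners and classical targets of Oct4 with SOX2. In this list 7 genes were higher, 4 were lower, and Dppa4 did not pass the test, with a median log2 fold change of 0.20. Zfp42, a marker of naive cells known as Rex1, was higher by 0.90 and Lefty1, a Nodal antagonist, by 0.50 (adjusted p = 1.9e-31 and 1.1e-21, edgeR). Fbxo15 was higher by 0.62 (adjusted p = 2.1e-20, edgeR). Among the lower genes, Zscan10 had a log2 fold change of -0.77, Dppa5a of -0.69, and the growth factor gene Fgf4 of -0.65 (adjusted p = 1.2e-25, 8.3e-28, and 1e-21, edgeR). Sox2 was among the higher genes of the list, and a lower level of Pou5f1 thus stood beside targets that moved in both directions. Nanog, Fbxo15, and Zfp42 are counted again among the naive genes below. Sox2, Nanog, Zfp42, and Dppa5a are counted again among the general markers of pluripotent cells, so that the counts of these lists are not separate.

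Foxd3 (ENSMUSG00000067261, chr4:99656299-99658622, forward strand) encodes a forkhead factor of the epiblast and later of the neural crest. It had 899, 896, and 884 counts in WT and 152, 135, and 130 counts in Tnfaip2-/- EBs. The Tnfaip2-/- counts lay between 130 and 152 and were far from those of any WT sample. The level was 39.1 ± 1.29 CPM in WT and 6.23 ± 0.419 CPM in Tnfaip2-/- EBs (log2 fold change -2.65, SE 0.068, adjusted p = 9.1e-34, edgeR). The microRNA gene annotated within the Foxd3 exon, Gm23366, had 0 counts in all samples. All of its 89 bases lie in that exon, so this count cannot show whether reads there came from it. For Foxd3 the gaps between replicates were small against the gap between genotypes.

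Within 250 kb of Foxd3, 5 other genes were tested and 1 was called, the long noncoding RNA Gm12688 (chr4:99653607-99654983, reverse strand), which starts 1.32 kb before Foxd3 and points away from it. Gm12688 had 144, 151, and 180 counts in WT and 38, 33, and 37 counts in Tnfaip2-/- EBs (log2 fold change -2.10, SE 0.139, adjusted p = 5.8e-18, edgeR). It was named after its value was seen. The coding neighbours Alg6, Itgb3bp, and Efcab7 had log2 fold changes of 0.09, -0.10, and -0.02 and did not pass the test. The change at Foxd3 and Gm12688 thus stood out from the genes around them, and the median over chromosome 4 was 0.03.

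Neural crest markers were read beside Foxd3. Of 8, 7 were tested, 4 were lower, 0 were higher, and Sox10, Snai2, and Ets1 did not pass. Their summed level was 13.5, 15.6, and 13.3 CPM in WT and 8.31, 8.39, and 9.59 CPM in Tnfaip2-/- EBs. Twist1 had the most CPM in WT EBs and Ets1 in Tnfaip2-/- EBs. Sox10, a defining neural crest gene, had at most 20 counts in any sample. Tfap2b was not tested, and had 7, 8, and 5 counts in WT and 0, 1, and 0 counts in Tnfaip2-/- EBs. Pax3, which had 50 counts in each WT sample and 19, 17, and 18 counts in the Tnfaip2-/- samples, changed most among the 4, with Tfap2a close to it (log2 fold changes of -1.43 and -1.39, adjusted p = 7.5e-08 and 1.5e-07, edgeR). The part of these cells in the value of Foxd3 was not tested. Its forkhead paralogues Foxd1, Foxd2, and Foxd4 had at most 14 counts in any sample and were not tested.

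Grhl2 (ENSMUSG00000022286, chr15:37233036-37363569, forward strand), a grainyhead-like factor that keeps epithelial enhancers active as cells enter the formative state, had 420, 455, and 453 counts in WT and 217, 209, and 239 counts in Tnfaip2-/- EBs. The groups did not overlap. The level was 19.4 ± 0.897 CPM in WT and 9.95 ± 0.71 CPM in Tnfaip2-/- EBs (log2 fold change -0.96, SE 0.0719, adjusted p = 3.4e-16, edgeR). The antisense gene Gm16136, which overlaps 1.96% of its exon bases, had between 9 and 17 counts and did not pass the test.

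Its paralogue Grhl3, known from surface ectoderm and neural tube closure, moved in the opposite direction. Grhl3 had 249, 298, and 289 counts in WT and 1489, 1493, and 1535 counts in Tnfaip2-/- EBs (log2 fold change 2.47, SE 0.0543, adjusted p = 1.9e-36, edgeR). The ratio of Grhl3 to Grhl2 per kb of exon was 1.83, 2.02, and 1.97 in WT and 21.2, 22.1, and 19.8 in Tnfaip2-/- EBs, a 10.8-fold difference that was chosen after the data were seen and was not tested. The sum of Grhl1, Grhl2, and Grhl3 rose from 7.29 ± 0.44 to 26.3 ± 0.847 CPM per kb of exon. Grhl2 made up 30.9% ± 0.49 of this sum in WT EBs and 4.39% ± 0.203 in Tnfaip2-/- EBs, whereas the share of Grhl3 was 59.9% ± 2.15 and 92.2% ± 0.704. With the longest transcript as length the share of Grhl2 was 41.8% and 7.26%, that of Grhl3 46.6% and 87.6%, and the mean ratio of Grhl3 to Grhl2 was 1.12 and 12.1. Grhl1 was the least abundant of them and differed by 0.42 on the log2 scale (adjusted p = 0.0041 in edgeR and 0.0627 in DESeq2), and its call was also lost without Tnfaip2-/- replicate 3 (adjusted p = 0.0976, edgeR).

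**Figure D2:**
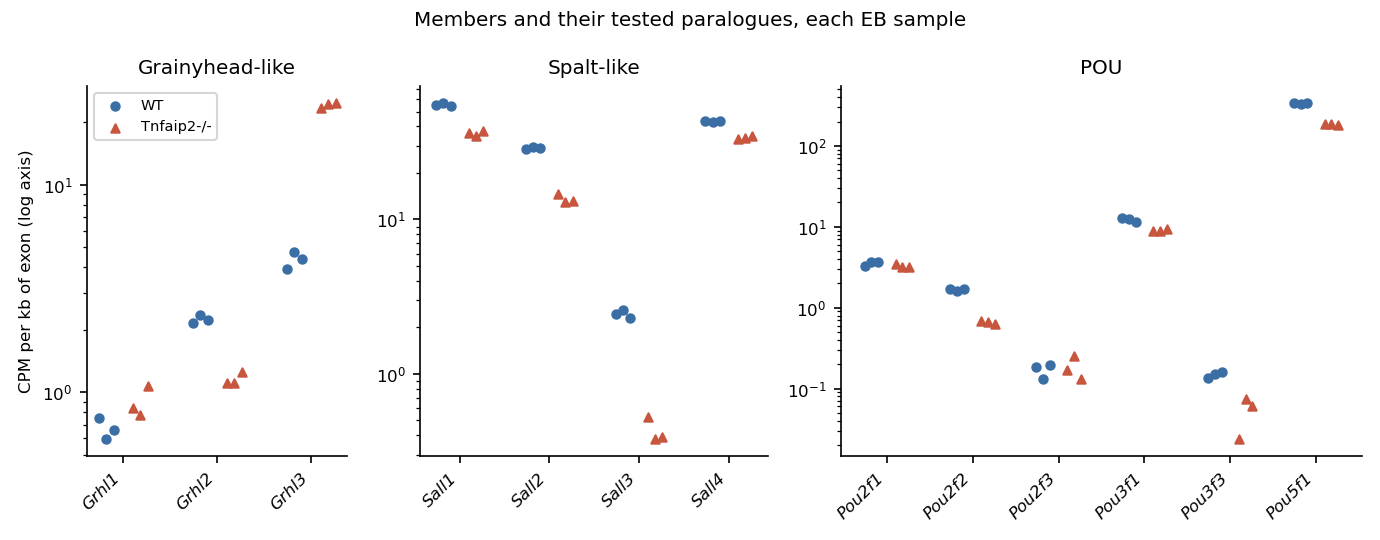
CPM per kb of exon, on log axes, of the grainyhead-like, spalt-like, and tested POU genes in each EB sample, with circles for WT and triangles for Tnfaip2-/- EBs. Grhl3 lies above its WT samples in Tnfaip2-/- EBs and Grhl2 below, while the 4 Sall genes are all lower.

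Genes bound by grainyhead-like factors in epithelia were not lower as a group. Of the 10 in the list, 6 were higher, 2 were lower, and Cdh1 and Cldn6 did not pass the test, with a median log2 fold change of 0.53. The call of Cldn7 (adjusted p = 0.022, edgeR) was lost in DESeq2 (adjusted p = 0.168), without an expression filter, and in 4 of the 6 edgeR fits that left out 1 sample, and Cdh1 was called with upper-quartile scaling (adjusted p = 0.0213, edgeR). Tfap2c, which is also a germ cell and trophoblast factor, had a log2 fold change of 2.98, and the splicing regulator gene Esrp1 of 1.55 (adjusted p = 2.4e-45 and 4.9e-28, edgeR). The tight junction gene Cldn3 was higher by 1.06, while the vesicle trafficking gene Rab25 was lower, at -1.16 on the log2 scale (adjusted p = 7.3e-07 and 5.2e-07, edgeR). Epcam was the other lower gene, with -0.47 (adjusted p = 1.3e-18, edgeR). E-cadherin, encoded by Cdh1, was at 313 ± 5.08 CPM in WT EBs and 321.5 ± 3.02 CPM in Tnfaip2-/- EBs.

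Of the 7 surface ectoderm markers, 4 were tested, with Grhl3 itself higher, Krt8 and Tfap2a lower, and Krt18 not past the threshold. Krt8 was not called by DESeq2 (adjusted p = 0.104), nor by edgeR without Tnfaip2-/- replicate 1 (adjusted p = 0.122), while Krt18 was called in 2 of the 6 edgeR fits that left out 1 sample and without an expression filter. Their sum was 44.6, 46.9, and 46.2 CPM in WT and 94.5, 96.1, and 98.6 CPM in Tnfaip2-/- EBs, with Krt18 as the most abundant gene in WT and Grhl3 in Tnfaip2-/- EBs. Trp63, which defines stratified epithelium, had at most 2 counts in any sample, Krt5 at most 4, and Krt14 at most 7. The higher sum in Tnfaip2-/- EBs was thus made by Grhl3, with the keratins of stratified epithelium near 0 in all samples.

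Sall4 (ENSMUSG00000027547, chr2:168748332-168767943, reverse strand) had 5469, 5325, and 5620 counts in WT and 4186, 4066, and 4285 counts in Tnfaip2-/- EBs. Sall2 (ENSMUSG00000049532, chr14:52311172-52328762, reverse strand) had 3535, 3596, and 3732 counts in WT and 1798, 1554, and 1586 counts in Tnfaip2-/- EBs. For both genes each Tnfaip2-/- sample was below each WT sample. Sall4 was at 239 ± 1.76 and 187.5 ± 4.83 CPM (log2 fold change -0.35, SE 0.0271, adjusted p = 9e-16, edgeR). Sall2 at 158 ± 2.33 and 73.8 ± 4.56 CPM (log2 fold change -1.10, SE 0.0344, adjusted p = 2e-30, edgeR).

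The balance between them shifted toward Sall4. The ratio of Sall2 to Sall4 per kb of exon was 0.659, 0.688, and 0.677 in WT and 0.438, 0.389, and 0.377 in Tnfaip2-/- EBs. The groups did not overlap, and the ratio was 1.68-fold lower (exact two-sided permutation test, p = 0.1, the smallest it allows, adjusted p = 0.1 over 2 ratios). Sall1, which was the most abundant of the family per kb of exon at 55.4 ± 1.35 in WT EBs, differed by -0.61 on the log2 scale (adjusted p = 9.7e-24, edgeR). Sall3 had 417, 432, and 405 counts in WT and 89, 62, and 65 counts in Tnfaip2-/- EBs (log2 fold change -2.50, adjusted p = 1.5e-26, edgeR). All 4 genes were lower, and the summed level of the family fell from 130.2 ± 1.54 to 84.1 ± 2.34 CPM per kb of exon. Gm14261, whose exons overlap 9.5% of the Sall4 exon bases on the opposite strand, had at most 10 counts in any sample, and no annotated exon of another gene overlapped those of Sall2 or Utf1.

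Sall4 is also expressed in visceral endoderm. Of 10 markers of this tissue all were tested, 6 were lower, Sox17 was higher, and Gata4, Gata6, and Hnf4a did not pass. Their sum was 137, 136, and 133 CPM in WT and 120, 118, and 120 CPM in Tnfaip2-/- EBs, and Cubn was the most abundant gene. Sox17 was not called by DESeq2 (adjusted p = 0.116) or in 2 of the 6 edgeR fits that left out 1 sample. The call of Cubn was lost in DESeq2 (adjusted p = 0.136), with upper-quartile scaling (adjusted p = 0.15, edgeR), and with the stricter filter of 1 CPM, and in 4 of the 6 fits that left out 1 sample. Ttr, a serum protein of this tissue, was lower (log2 fold change -1.95, adjusted p = 2.7e-15, edgeR), and Afp, with 21, 16, and 25 counts in WT and 1, 0, and 2 counts in Tnfaip2-/- EBs, was close to undetected in the latter. The part of these cells in the value of Sall4 was not tested.

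Germ cells express Pou5f1, Utf1, and Sall4 too. Of 7 germ cell markers, all were tested, 6 were higher, and Dnd1 was lower. Their sum was 77.1, 72.8, and 74.1 CPM in WT and 299, 292, and 295 CPM in Tnfaip2-/- EBs, with Tfap2c as the most abundant gene. Tfap2c alone was at 21.65 CPM in WT and 170.9 CPM in Tnfaip2-/- EBs. Tfap2c and Dppa3 changed most, but neither is confined to germ cells. Tfap2c is also counted among the genes bound by grainyhead-like factors, and Dppa3 among the naive genes. Prdm1 and Nanos3, defining genes of the early germline, had log2 fold changes of 1.92 and 1.81 (adjusted p = 2.6e-23 and 2.8e-13, edgeR). Nanos3 had between 24 and 47 counts in the WT EBs and between 105 and 122 counts in Tnfaip2-/- EBs. The 3 genes shared with germ cells were lower or at the threshold, while 6 of these 7 markers were higher. The part of these cells in the levels was not tested.

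Ordered by level per kb of exon, no gene overlapped with the next over the 3 samples of either group. In WT EBs the order was Pou5f1 (337.6 ± 4.28), Utf1 (264 ± 11.7), Otx2 (53.1 ± 0.532), Sall4 (43.2 ± 0.319), Sall2 (29.1 ± 0.428), Foxd3 (16.8 ± 0.555), Pou3f1 (12.2 ± 0.692), and Grhl2 (2.25 ± 0.104). In Tnfaip2-/- EBs 2 pairs had changed places. Utf1 (252 ± 9.7) stood above Pou5f1 (186 ± 2.65), and Pou3f1 (9.09 ± 0.276) above Foxd3 (2.68 ± 0.18). The order of Utf1 and Pou5f1 depended on the length used. With the longest transcript in place of all exons, an alternative chosen after the data were seen, Pou5f1 (307 ± 4.38) stayed above Utf1 in Tnfaip2-/- EBs, while Pou3f1 and Foxd3 changed places as before. Pou5f1 was above 98.8% of all tested genes in WT EBs and above 97.7% in Tnfaip2-/- EBs on this scale, Foxd3 above 77.1% and 39.4%, and Grhl2 above 36.4% and 25%.

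**Figure D3:**
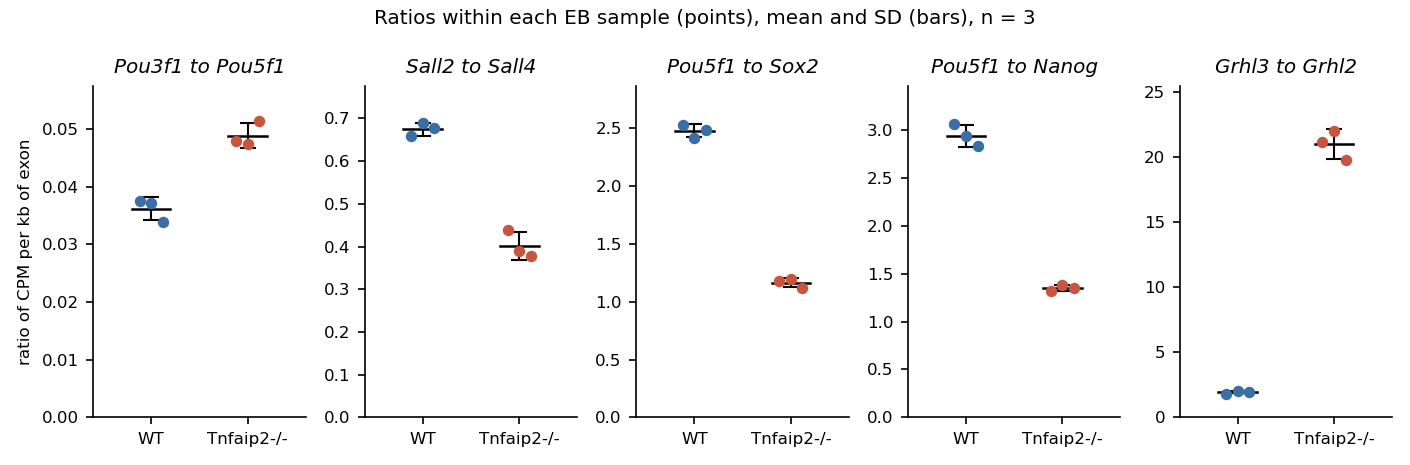
Ratios of CPM per kb of exon between pairs of genes within each EB sample, with 1 point per sample and the mean and SD of 3 samples as bars. The ratios of Pou3f1 to Pou5f1 and of Grhl3 to Grhl2 are higher in Tnfaip2-/- EBs, and those of Sall2 to Sall4, Pou5f1 to Sox2, and Pou5f1 to Nanog are lower.

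Other genes of the formative and primed state were mostly lower as well. Of 22, 19 were lower and 2 were higher, with a median log2 fold change of -0.69, near that of the 8 factors. Fst, which encodes the activin antagonist follistatin, had the lowest value, with 717, 758, and 790 counts in WT and 109, 97, and 104 counts in Tnfaip2-/- EBs (log2 fold change -2.83, SE 0.0748, adjusted p = 2.6e-33, edgeR). Car14, a carbonic anhydrase gene, differed by -2.22 on the log2 scale (adjusted p = 6e-35, edgeR). The de novo DNA methyltransferase genes Dnmt3a and Dnmt3b had values of -2.12 and -1.79 (adjusted p = 8.2e-46 and 7.6e-44, edgeR), while their cofactor gene Dnmt3l was higher by 0.29 (adjusted p = 1.2e-09, edgeR).

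Fgf5, a standard marker of the formative epiblast, changed far less, with 37.6 ± 1.14 CPM in WT and 27.9 ± 0.635 CPM in Tnfaip2-/- EBs (log2 fold change -0.43, SE 0.0487, adjusted p = 1.2e-10, edgeR), and was named after its value was seen. Tcf7l1, a repressor at the end of the Wnt pathway, was higher by 0.12 (adjusted p = 0.0022, edgeR), and without WT replicate 3 this call was lost (adjusted p = 0.108, edgeR). Tcf15, among the lower genes, was not called by DESeq2 (adjusted p = 0.0512), with upper-quartile scaling (adjusted p = 0.0662, edgeR), or in 2 of the 6 edgeR fits that left out 1 sample.

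**Figure D4:**
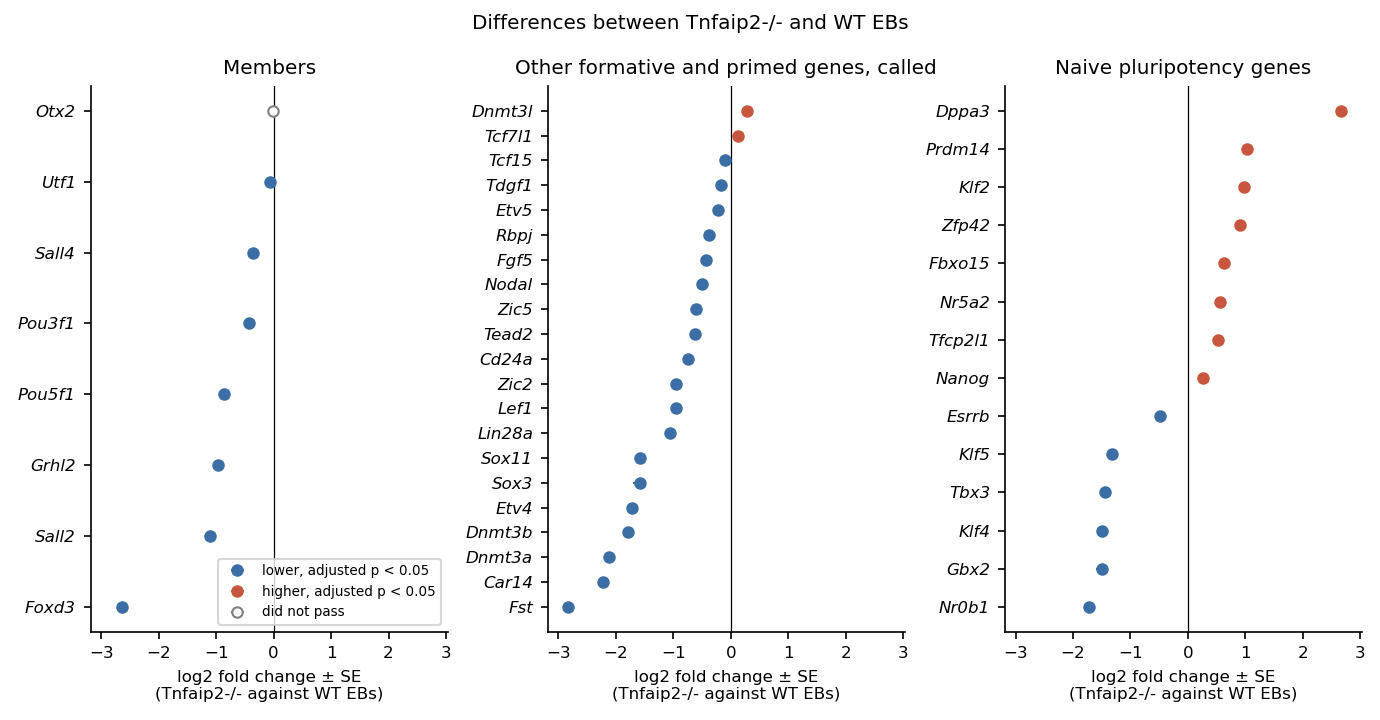
Log2 fold changes with SE (within the symbol for most genes) of Tnfaip2-/- against WT EBs for the 8 factors, the 21 called genes among the other formative and primed genes, and the 14 naive genes, with filled symbols for an adjusted p below 0.05 and open symbols for genes that did not pass. Most formative and primed genes lie to the left of 0, and naive genes lie on both sides, from -1.72 for Nr0b1 to 2.67 for Dppa3.

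Naive genes did not share this direction. Of 14, 8 were higher and 6 were lower, with a median log2 fold change of 0.39. Dppa3 and Prdm14, both also of the germline, were higher, with log2 fold changes of 2.67 and 1.03 (adjusted p = 8.3e-32 and 8.2e-19, edgeR). Nr0b1, Gbx2, and Klf4 were among the lower genes, with -1.72, -1.50, and -1.49 (adjusted p = 1.8e-32, 1.8e-18, and 6.8e-29, edgeR). Tbx3 and Klf5 were lower too, with -1.45 and -1.32, and both changed more than Prdm14 (adjusted p = 1e-25 and 9.1e-22, edgeR). The summed level of the naive list was 1197, 1195, and 1196 CPM in WT and 1504, 1509, and 1526 CPM in Tnfaip2-/- EBs. That of the 22 other formative and primed genes was 4054, 4079, and 4023 CPM and 2349, 2318, and 2354 CPM. The groups did not overlap in either sum. The higher naive sum came from Zfp42 and Klf2, and without these 2 genes, set aside after their values were seen, it was lower in Tnfaip2-/- EBs, at 794.6, 802.3, and 797.6 CPM in WT and 760.3, 744.6, and 748.4 CPM in Tnfaip2-/- EBs. Without Dnmt3a and Dnmt3b, the 2 genes that moved the other sum most, that sum was still lower, at 2817, 2828, and 2797 CPM and 2026, 2003, and 2031 CPM. No called gene of any list changed sign under RLE or upper-quartile scaling or in DESeq2.

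The 6 general markers of pluripotent cells, Pou5f1 itself among them, divided into 3 higher and 3 lower genes. Their sum was 2929, 2881, and 2986 CPM in WT and 2488, 2475, and 2450 CPM in Tnfaip2-/- EBs, with Dppa5a as the most abundant gene. The lower sum came from Dppa5a, at 972.2 and 601.3 CPM, and Pou5f1, at 759 and 418.5 CPM. Of the others, Tdgf1 was also lower, at 433.9 and 385.8 CPM. Sox2 (280.4 and 328.8 CPM), Nanog (257.9 and 309.3 CPM), and Zfp42 (228.8 and 427.4 CPM) were higher. None of them had fewer than 5013 counts in a sample, so that the pluripotency genes were plentiful in the EBs of both lines. Primitive streak markers, which appear as cells leave the primed state, were lower for all 8 genes. Their sum was 98.3, 99.2, and 96.7 CPM in WT and 21.8, 18.9, and 23 CPM in Tnfaip2-/- EBs, with T as the most abundant gene in WT and Eomes in Tnfaip2-/- EBs, and a median log2 fold change of -3.90, or -3.38 with Mesp1, which was near 0 in Tnfaip2-/- EBs, set to a floor of 3 counts per sample. How far cells entering the streak contributed to the levels of the 8 factors was not tested.

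For each factor the genes with the most similar profile over the 6 samples were sought among the 15710 genes whose mean reached 1 CPM, by the root mean square difference of centred log2 CPM. The nearest to Pou5f1 were D10Jhu81e, Car2, and Lrfn4, at 0.018 to 0.0251 on the log2 scale. Those of Otx2 were Ppp2ca, Psme3, and Zc3hc1, at 0.0079 to 0.0096. Those of Foxd3 lay further away: the nearest, Rxrg, was at 0.0575, and Frzb and Fst followed at 0.112 and 0.113.

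The nearest to Sall2 were Amot, Ptch1, and Tdh (0.0288 to 0.04), and to Sall4 Atp5b, Ybx3, and Bscl2 (0.0127 to 0.0144). Grhl2 was followed by Chac1, Schip1, and P3h4 (0.0332 to 0.0396), Pou3f1 by Kdm6b, Vars2, and Tars2 (0.0204 to 0.0223), and Utf1 by Mnt, Mbnl3, and Dlgap3 (0.0146 to 0.0183). None of the 8 factors was among the nearest genes of another, and the formative list was represented by Fst alone. With 2 groups, such a distance mostly measures the size of the difference between genotypes and, for small differences, the scatter between replicates.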

How the data were processed

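RNA of 6 EB samples was sequenced with 51-base reads from libraries that do not keep the strand. The authors mapped the reads to GRCm38 with TopHat2 (2.1.0 in the submitters' processing notes), counted uniquely mapped reads per Ensembl gene with featureCounts (1.5.0), and deposited the raw counts. Whether reads were counted by strand is not stated. Samples were grouped by their labels, and the 8 genes and all lists were chosen with earlier results of these data known.

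The analysis used edgeR 4.0.16 in R 4.3.3 (TMM, default expression filter with minimum count 10 and minimum total 15, robust quasi-likelihood F test, Benjamini-Hochberg adjustment over 17849 genes). SE was derived from the F statistic as |log2 fold change| over √F. Exon lengths and positions were taken from GENCODE, and 52489 of the 52636 identifiers had a symbol there. Ratios were tested with SciPy 1.17.1. Named genes were the 8 factors, Tnfaip2, and up to 4 genes of each list with the largest called changes. List members with a call unlike the rest, genes with overlapping exons, and the 3 nearest profiles were also named. Prdm14, Tbx3, Klf5, Fbxo15, and Lefty1 were named beyond the 4 largest changes of their lists. Other names are marked in the text or serve as defining or abundant markers. Alternatives were DESeq2 1.42.0, other scalings, filters, thresholds, and forms of the test, a block, and leaving out each sample.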

Additional observations from a re-analysis of the deposited data

How the results depend on the processing

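Of 180 log2 fold changes and counts computed under alternative settings, 164 kept their direction and their side of the threshold, or, for counts, stayed within 1.5 times the count reported. Upper-quartile scaling moved the log2 fold change of Otx2 to 0.0174 (adjusted p = 0.568, edgeR), on the other side of 0. The call of Utf1 was lost with DESeq2 (log2 fold change -0.0728), upper-quartile scaling (-0.0384), the stricter filter of at least 1 CPM in 3 samples (-0.0586), the replicate number as a block (-0.0641), the threshold of 0.01 (-0.0642), and the test against a fold change of 1.5 (-0.0642), and without single samples its log2 fold change ranged from -0.11 to -0.0346 (adjusted p from 0.0012 to 0.316, edgeR). The cause was not tested. Against a fold change of 1.5, the calls of Pou3f1 (-0.43) and Sall4 (-0.35) were lost too, since their estimates are smaller than this fold. This test left 4 of the 8 factors (Pou5f1, Foxd3, Grhl2, and Sall2), 11 other formative and primed genes, 9 naive genes, and 2798 of all tested genes. Without single samples, 6 to 7 factors, 20 to 21 other formative and primed genes, 14 naive genes, and 11537 to 11744 of all genes were called.

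Same-numbered samples did not deviate in the same direction, and correlated at -0.12, -0.12, and -0.09 after removal of the group means. Samples with different numbers correlated at 0.0098 to 0.112. The labels do not say whether the numbers stand for a shared batch, and these values cannot decide it. With the number as a block 6 of the 8 factors and 11841 genes were called. With the longest transcript as length, Utf1 stood at -0.29 against Pou5f1 in Tnfaip2-/- EBs on the log2 scale per kb, in place of 0.44. Length cancels in the log2 differences of ratios between groups. Without single samples these ranged from 0.39 to 0.46 for Pou3f1 to Pou5f1 and from -0.82 to -0.71 for Sall2 to Sall4. Genes at the floor of 3 counts, about 0.13 CPM, limit what can be said of Tnfaip2 and of the rarest markers and paralogues.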
